A study of Mus musculus with 5 samples.

Results

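Genes of steroid synthesis and metabolism were followed in bulk RNA sequencing of sorted mouse oviduct stroma: Star, Cyp11a1, Hsd3b1, Cyp17a1, Hsd17b1, Cyp19a1, Nr5a1, Lhcgr, Srd5a1 and Cyp7b1. They are 10 of the 23857 genes in the deposited table. They were picked by name, with their levels in the control and labelled knockout libraries already known and with the higher level of Cyp17a1 already noted. Their differences between those groups are therefore given as a description, without a test. Mean Cyp17a1 was 12.1-fold higher in the libraries labelled knockout than in the controls and mean Cyp7b1 was 4.51-fold higher in the controls, both without overlap between the groups. Hsd17b1 and Nr5a1 also lay above both controls and Star below both, while Cyp11a1, Hsd3b1, Lhcgr, Cyp19a1 and Srd5a1 overlapped. Of all genes tested, 11.9% lay above both controls in every labelled knockout library and 21.9% below both.

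The study holds 5 libraries, each from YFP-positive cells sorted out of the fallopian tubes (oviducts) of a young adult female mouse. All 5 mice carried Pdgfra-Cre, a recombinase under the promoter of the mesenchymal gene Pdgfra, and the R26Y (Rosa26-YFP) reporter, which Cre switches on and by which the cells were sorted. Control mice 2 and 3 carried nothing else, and mice 1, 2 and 3 of the other group were Pdgfra-Cre;Esr1(fl/fl);R26Y, in which Cre is meant to delete Esr1, the gene of estrogen receptor alpha, in Pdgfra-expressing cells and their descendants. The comparison asks which transcripts differ when Esr1 is deleted in these cells.

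Steroid hormones are made from cholesterol in a fixed order of steps. STAR carries cholesterol into mitochondria, CYP11A1 cleaves its side chain to give pregnenolone, HSD3B enzymes turn pregnenolone into progesterone, CYP17A1 leads on to androgens, and HSD17B1 and CYP19A1 (aromatase) make estradiol. In the ovary theca cells make the androgens under luteinizing hormone and granulosa cells aromatise them, while the oviduct is known chiefly as a target of the hormones. SRD5A1 and CYP7B1 act on finished steroids and on oxysterols.

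Levels are TPM, the share of a library's transcripts after correction for transcript length, scaled to a total of 1000000, so that levels of different genes can be compared. The smallest member level, 0.725 TPM for Lhcgr in control mouse 2, stands for about 67.8 reads, and the smallest number of reads behind any member value is about 32.2, for Cyp19a1 in the same library. These read numbers were estimated from the steps between low TPM values and the longest annotated transcript, and they are approximate. Estimated depth ran from 47.7% of control mouse 2, in labelled knockout mouse 1, up to that of control mouse 2 itself.

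Esr1 was at 83.3 and 77.6 TPM in control mice 2 and 3 and at 28.9, 85.0 and 170 TPM in labelled knockout mice 1, 2 and 3. Only mouse 1 lay below the controls, so the Esr1 level goes against the label in mice 2 and 3, and every direction below refers to libraries labelled knockout. Values per gene do not show whether a floxed exon was missing. The stromal label held in that Pdgfra (165 to 298 TPM), Col1a1 (1389 to 3806 TPM) and Dcn (6764 to 10110 TPM) were abundant in all 5 libraries. Epithelial markers were present too: the secretory cell gene Ovgp1 was at 2273 and 2463 TPM in the controls against 1522, 10655 and 11258 TPM in labelled knockout mice 1, 2 and 3. Across all 19292 genes tested, 2 were higher and 3 lower at an adjusted p under 0.05 (limma with Benjamini-Hochberg adjustment), against 1022 and 502 without labelled knockout mouse 1. The fit without mouse 1 drops the only labelled knockout library with Esr1 below the controls, and its Esr1 log2 difference was 0.57. It keeps mice 2 and 3, where Ovgp1 was far above the controls, and every later result from it carries this limit. Without labelled knockout mouse 2, control mouse 2 or control mouse 3 no gene passed (0 by limma), and 2423, 1032 and 1067 genes had an unadjusted p under 0.05. Without labelled knockout mouse 3, 0 were higher and 2 lower. Nothing in the labels says that the mice were littermates or were processed together, and p-values measure the spread between these 5 libraries.

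Cyp11a1, Hsd3b1 and Lhcgr were the members that differed most between the controls themselves, and their promoters are shown for that reason. RefSeq sequences of GRCm38.p6 (the build mm10) were matched by symbol for 5 of the 10 members (Cyp11a1, Cyp19a1, Hsd3b1, Lhcgr and Srd5a1). Each sequence holds the 250 bases before an annotated start, read 5′ to 3′ on the strand of the gene, with capitals for AGGTCA, the hexamer bound by many nuclear receptors.
Cyp11a1, plus strand, chr9:58014702-58014951: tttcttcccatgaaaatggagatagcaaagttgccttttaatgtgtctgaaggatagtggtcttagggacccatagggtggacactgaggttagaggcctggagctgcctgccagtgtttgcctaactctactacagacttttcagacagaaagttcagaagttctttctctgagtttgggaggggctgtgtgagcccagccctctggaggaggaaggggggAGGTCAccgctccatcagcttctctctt
Hsd3b1, minus strand, chr3:98859795-98860044: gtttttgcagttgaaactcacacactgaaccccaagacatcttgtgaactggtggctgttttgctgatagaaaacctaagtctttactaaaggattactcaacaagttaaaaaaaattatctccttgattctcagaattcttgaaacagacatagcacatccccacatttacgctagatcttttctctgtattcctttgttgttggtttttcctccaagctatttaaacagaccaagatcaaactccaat
Lhcgr, minus strand, chr17:88792015-88792264: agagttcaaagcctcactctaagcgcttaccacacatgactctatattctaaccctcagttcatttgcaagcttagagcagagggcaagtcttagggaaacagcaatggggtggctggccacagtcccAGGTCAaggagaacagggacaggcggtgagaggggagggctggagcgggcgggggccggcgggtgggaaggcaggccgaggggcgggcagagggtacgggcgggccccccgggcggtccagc
On either strand, AGGTCA occurred in the windows of Cyp11a1 (its first base 28 bases before the start) and Lhcgr (122 bases before it) and not in that of Hsd3b1. It occurred in 14.0% of the 32817 promoter windows of this length in the table. The longer form CAAGGTCA, typical of the NR5A receptors, contains the hexamer, was in 1.33% of the windows and in none of the 3 shown. A match of letters describes the sequence and is not a binding site. Cyp11a1 has another annotated start, at which the window held neither motif. Of the 3 windows of Cyp19a1, 1 held AGGTCA, 81 bases before its start on the opposite strand, and that of Srd5a1 held neither motif.

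**Figure D1:**
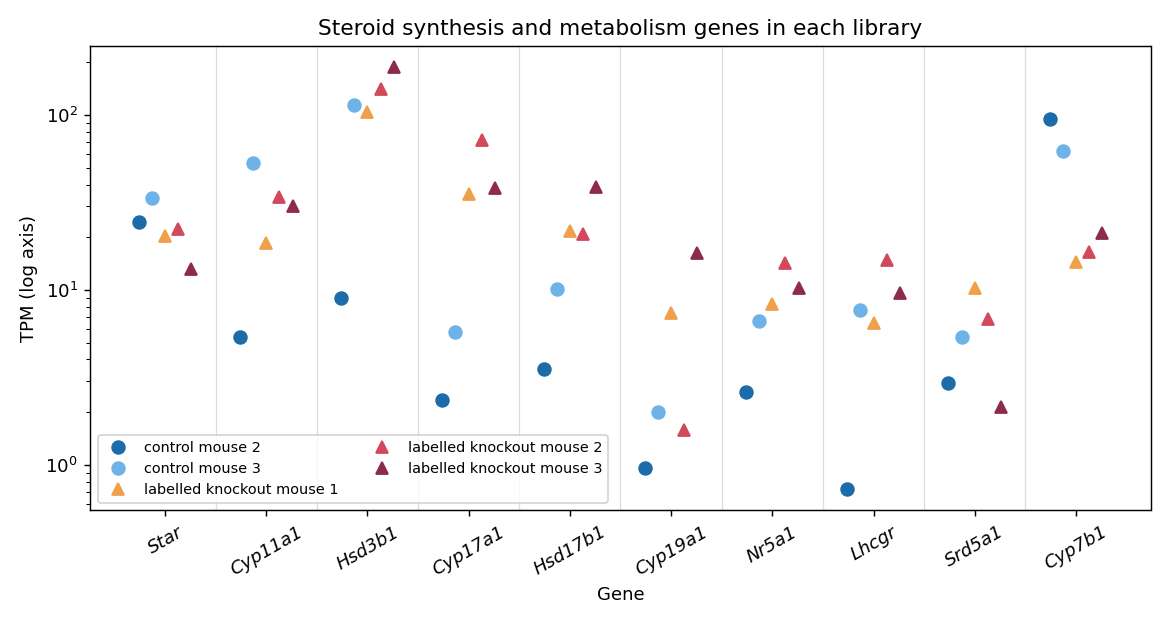
TPM on a log axis for each of the 10 genes, with a point for each library (circles, control mice 2 and 3; triangles, labelled knockout mice 1, 2 and 3). Cyp17a1 lies between 35.2 and 72.4 TPM in the triangles and at 2.34 and 5.72 TPM in the circles, Cyp7b1 shows the opposite order, and for Cyp11a1, Hsd3b1 and Lhcgr control mouse 2 stands far below the other 4 libraries.

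Cyp17a1, the enzyme that commits steroids to androgens (chromosome 19, 46667165 to 46673172, minus strand, GRCm38), was the member with the largest difference. It was at 2.34 and 5.72 TPM in control mice 2 and 3 and at 35.2, 72.4 and 38.2 TPM in labelled knockout mice 1, 2 and 3. All 3 labelled knockout libraries lay above both controls, and the lowest of them held about 555 reads against 76.9 and 123 in the controls. Mean Cyp17a1 was 4.03 ± 2.39 TPM (SD, n = 2) against 48.6 ± 20.6 TPM (SD, n = 3), a ratio of 12.1. On the log2(TPM + 1) scale, which understates changes of low genes, the difference was 3.31 with a standard error of 0.41. It stayed between 2.81 and 3.82 when each library was left out in turn, and it was 3.50 without labelled knockout mouse 1.

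The members upstream of Cyp17a1 differed among themselves. Star, which delivers cholesterol to the first enzyme (chromosome 8, 25806555 to 25815982), was at 24.5 and 33.6 TPM in control mice 2 and 3 and at 20.4, 22.4 and 13.1 TPM in labelled knockout mice 1, 2 and 3. All labelled knockout libraries lay below both controls, though mouse 2 lay close to control mouse 2. The log2 difference was -0.63 with a standard error of 0.27, and it was -0.41 without labelled knockout mouse 3 and -0.41 without control mouse 3.

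Cyp11a1, the side-chain cleavage enzyme (chromosome 9, 58006411 to 58027023), was at 5.37 and 53.5 TPM in the controls against 18.6, 34.0 and 30.3 TPM in labelled knockout mice 1, 2 and 3. The controls enclosed all 3 labelled knockout libraries, so the groups overlapped completely. Control mouse 3 was 9.97-fold above control mouse 2, and a difference between the controls that large on the log2 scale was seen in 0.0674% of the genes tested. The log2 difference between the groups was 0.58 with a standard error of 0.81, became -0.97 without control mouse 2 and 2.13 without control mouse 3, and has the opposite sign to the ratio of mean TPM, 0.939. An exon of Cyp11a1 overlaps Gm17322, a non-coding gene on the same strand not analysed here, and the reads of both cannot be told apart.

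Hsd3b1, which makes progesterone from pregnenolone (chromosome 3, 98852194 to 98859794), was the most abundant member in 4 of the 5 libraries. It stood at 9.0 and 115 TPM in control mice 2 and 3 against 105, 141 and 188 TPM in labelled knockout mice 1, 2 and 3. Control mouse 3 lay among the labelled knockout libraries and control mouse 2 far below them. The controls differed 12.8-fold, a log2 difference of 3.53 that only 0.0259% of tested genes reached. Between the groups the log2 difference was 2.06 with a standard error of 0.91, but 0.29 without control mouse 2 and 3.82 without control mouse 3. The sister genes Hsd3b2, Hsd3b3 and Hsd3b6 stayed at or under 2.11 TPM in every library, and since reads can be shared within this family of near-identical genes, their split is uncertain.

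The proportions of these enzymes within a library were compared next, since a ratio does not depend on the library total. Hsd3b1 stood at 1.68 and 2.15 times Cyp11a1 in the controls and at 5.63, 4.15 and 6.21 times in labelled knockout mice 1, 2 and 3. The ratio of Cyp17a1 to Cyp11a1 was 0.435 and 0.107 in control mice 2 and 3, and 1.89, 2.13 and 1.26 in the labelled knockout libraries. Neither ratio overlapped between the groups. Single genes alone did not overlap in 11.9% (higher) and 21.9% (lower) of all genes tested, and the share among ratios of gene pairs was not computed. Cyp17a1 was also chosen with its higher level known, so the ratios are a description only. Star stood at 4.56 and 0.629 times Cyp11a1 in the controls and at 1.10, 0.66 and 0.434 times in labelled knockout mice 1, 2 and 3, with the high value in control mouse 2, where Cyp11a1 was low. Cyp17a1 against Hsd3b1 did overlap, at 0.26 and 0.05 in the controls and 0.336, 0.513 and 0.203 in labelled knockout mice 1, 2 and 3.

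The last steps, to estradiol, were higher on average in the labelled knockout libraries. Hsd17b1, which reduces estrone to estradiol and in the mouse ovary marks granulosa cells (chromosome 11, 101078411 to 101080527), was at 3.55 and 10.2 TPM in the controls against 21.8, 20.97 and 38.6 TPM in labelled knockout mice 1, 2 and 3. The groups did not overlap, and the log2 difference of 1.93 (standard error 0.43) ranged from 1.28 without control mouse 2 to 2.57 without control mouse 3. Cyp19a1, the aromatase gene (chromosome 9, 54165937 to 54268110), was at 0.959 and 2.00 TPM in the controls against 7.33, 1.58 and 16.2 TPM in labelled knockout mice 1, 2 and 3. Mice 1 and 3 lay above the controls and mouse 2 between them, a 10.3-fold range within the labelled knockout group that no other member matched. Its log2 difference of 1.57 (standard error 0.73) fell to 0.94 without labelled knockout mouse 3 and rose to 2.31 without mouse 2.

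Nr5a1 encodes steroidogenic factor 1, the nuclear receptor that switches on many steroidogenic genes (chromosome 2, 38692656 to 38714542). It was at 2.62 and 6.65 TPM in control mice 2 and 3 and at 8.28, 14.2 and 10.3 TPM in labelled knockout mice 1, 2 and 3, with no overlap, although mouse 1 lay close to control mouse 3. The log2 difference was 1.15 with a standard error of 0.37, and 0.61 without control mouse 2. Lhcgr, the receptor for luteinizing hormone (chromosome 17, 88716481 to 88791990), was at 0.725 and 7.70 TPM in the controls against 6.46, 14.8 and 9.66 TPM in labelled knockout mice 1, 2 and 3. Labelled knockout mouse 1 lay between the controls, which differed 10.6-fold, by as much as only 0.238% of tested genes did on the log2 scale. Its log2 difference of 1.48 (standard error 0.67) was 0.31 without control mouse 2 and 2.65 without control mouse 3.

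Cyp7b1 ran the other way. It encodes the oxysterol 7α-hydroxylase, which inactivates oxysterols and some androgen metabolites, among them ligands of estrogen receptors (chromosome 3, 18071950 to 18243338). It stood at 94.7 and 62.3 TPM in control mice 2 and 3 against 14.5, 16.6 and 21.2 TPM in labelled knockout mice 1, 2 and 3, where the lowest value stood for about 205 reads. All labelled knockout libraries lay below both controls and close to each other, with a 1.47-fold range, the narrowest of any member in that group. Mean levels of 78.5 ± 22.9 TPM (SD, n = 2) and 17.4 ± 3.45 TPM (SD, n = 3) differed 4.51-fold. The log2 difference of -2.10 (standard error 0.25) stayed between -2.39 and -1.80 with any library left out. Relative to Pdgfra in the same library, Cyp7b1 was at 0.42 and 0.332 in the controls and at 0.0485, 0.0718 and 0.129 in labelled knockout mice 1, 2 and 3.

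Srd5a1, the 5α-reductase that converts testosterone to dihydrotestosterone and reduces progesterone (chromosome 13, 69573449 to 69611442), was at 2.94 and 5.41 TPM in the controls against 10.3, 6.77 and 2.14 TPM in labelled knockout mice 1, 2 and 3. Mice 1 and 2 lay above the controls and mouse 3 below them, so the groups overlapped. The log2 difference, 0.37, did not reach its standard error, 0.54, and was -0.024 without labelled knockout mouse 1. Its exons overlap Gm17108 on the same strand, with the same limit.

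**Figure D2:**
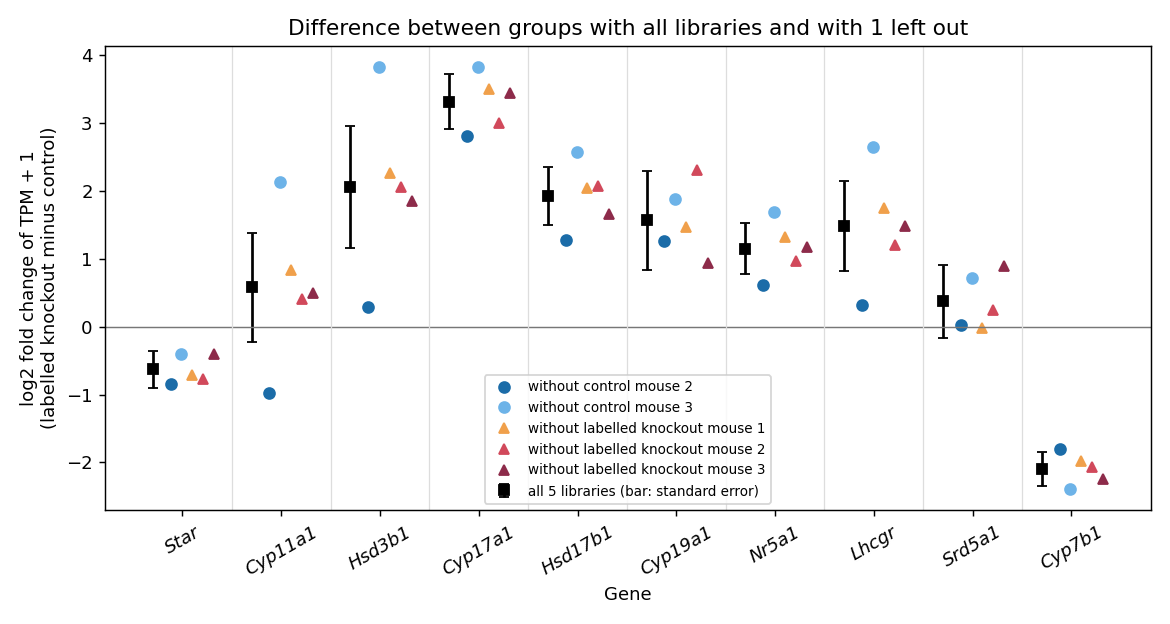
The log2 difference in TPM + 1 between labelled knockout and control libraries for each gene, from all 5 libraries (black squares, bars show the standard error) and with each library left out (coloured points). Cyp17a1 and Cyp7b1 keep their size, between 2.81 and 3.82 and between -2.39 and -1.80, while Cyp11a1, Hsd3b1 and Lhcgr move with the control that is left out.

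By count, 3 of the 10 members lay above both controls in all labelled knockout libraries (Cyp17a1, Hsd17b1 and Nr5a1) and 2 below both (Star and Cyp7b1), where 11.9% and 21.9% of all genes tested did so. At an adjusted p under 0.05, 0 members were called in either direction (limma), beside 0.0104% of all genes higher and 0.0156% lower. An unadjusted p under 0.05 was reached by 3 higher members, the same as above, and 1 lower member, Cyp7b1, beside 3.7% and 9.87%. The 713 higher and 1904 lower genes behind these shares became 1195 and 1378 with quantile normalization and 1290 and 1726 with median-of-ratios scaling. Without labelled knockout mouse 1, 1 member was called higher (Cyp17a1) and 1 lower (Cyp7b1), beside 5.35% and 2.63% of all genes. The median log2 difference of the members was 1.32 and that of all tested genes -0.022. Because the members were chosen with this comparison known, these counts carry no weight as a test. All 10 passed the filter on low values.

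Among each other, the members fell into a group that shared the low level of control mouse 2 and a few that did not. The sum of all 10 was 147 and 302 TPM in control mice 2 and 3 and 248, 345 and 368 TPM in labelled knockout mice 1, 2 and 3. By level, Cyp17a1 ranked 8 of 10 in both controls and 2, 2 and 3 in the labelled knockout libraries, while Cyp7b1 ranked 1 and 2 in the controls and 6, 6 and 5. Nr5a1 kept rank 7 or 8 in all 5 libraries. Likeness was measured as the root mean square difference of log2(TPM + 1) over the 5 libraries, after the mean of each gene was subtracted. The most alike pair was Nr5a1 and Lhcgr (0.44), followed by Cyp11a1 and Lhcgr (0.52) and by Hsd17b1 and Nr5a1 (0.56). All genes here share the same 5 libraries, so these values describe them only. Over all genes with a mean of at least 5 TPM, the profiles nearest to Cyp17a1 were those of Acsbg1, an acyl-CoA synthetase gene (0.39), Slc38a5, an amino acid transporter gene (0.44), Dlk1 (0.57), Amh, the anti-Müllerian hormone of granulosa cells (0.57), and Myoc (0.60), against a spread of Cyp17a1 itself of 1.69.

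Cyp7b1 had much closer neighbours, several of them matrix genes of fibroblasts. The nearest was Lum, the proteoglycan lumican (0.099), then Frzb, a secreted Wnt inhibitor (0.11), Il4ra (0.16), Postn, the matricellular protein periostin (0.19), and Col5a3 (0.21), beside a spread of Cyp7b1 of 1.06. Lum was at 2383 and 1740 TPM in the controls against 426, 448 and 671 TPM in labelled knockout mice 1, 2 and 3, the same order of libraries as Cyp7b1. Lum belongs to the 9 stromal markers, of which 5 lay below both controls, beside 21.9% of all genes. The sum of the 9 was 20124 to 24928 TPM in the controls and 13152 to 17168 TPM in the labelled knockout libraries, and its part in the Cyp7b1 values was not tested. Srd5a1 lay nearest to Il7r (0.21), Il18r1 (0.22), Siglech (0.24), Cacng4 (0.25) and Blk (0.26), beside its own spread of 0.67. Il7r, Il18r1, Siglech and Blk are known from lymphoid and dendritic cells, and the T cell gene Cd3e was likewise highest in labelled knockout mouse 1 and lowest in mouse 3, at 9.76 and 13.7 TPM in the controls and 35.9, 17.2 and 2.57 TPM in labelled knockout mice 1, 2 and 3. Cd3e was singled out from 8 immune markers, and the other 7 lay below both controls in all labelled knockout libraries, where Srd5a1 did not. The part of such cells in the Srd5a1 values was not tested.

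Granulosa cell markers were set beside the members of the synthesis pathway. Of 7 granulosa markers that are not members, 5 lay above both controls in all labelled knockout libraries (Amh, Inha, Fshr, Foxl2 and Serpine2), beside 11.9% of all genes. At an adjusted p under 0.05, 0 passed, and at an unadjusted p under 0.05 5 were higher (limma), beside 3.7% of all genes. Fshr and Foxl2 are also on the list of regulators below. Amh was at 1.76 and 4.73 TPM in control mice 2 and 3 and at 13.7, 23.8 and 14.6 TPM in labelled knockout mice 1, 2 and 3 (log2 difference 2.17, standard error 0.38, limma adjusted p 0.133). Inha, the inhibin alpha subunit, was at 9.39 and 38.7 TPM in the controls against 65.7, 111 and 136 TPM (log2 difference 2.31, standard error 0.56, limma adjusted p 0.199). As with Hsd3b1, control mouse 2 had the lowest level of both. Inhba, the inhibin beta A subunit, was at 4.66 and 12.4 TPM in the controls against 31.3, 7.02 and 52.6 TPM in labelled knockout mice 1, 2 and 3, so that mice 1 and 3 were high and mouse 2 lay between the controls, as for Cyp19a1. The summed level of the 7 markers was 393 to 417 TPM in the controls and 417 to 808 TPM in the labelled knockout libraries, and none was at 0 in any library. Gja1, the most abundant of them, was at 345 and 277 TPM in the controls against 181, 353 and 434 TPM in labelled knockout mice 1, 2 and 3, with overlap. Without labelled knockout mouse 1, 4 of the 7 were called higher (Amh, Inha, Serpine2 and Foxl2), beside 5.35% of all genes.

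The theca, luteal and Leydig genes differed among themselves. Insl3, a hormone of Leydig and theca cells, was at 3.64 and 1.04 TPM in the controls against 1.79 and 3.35 TPM in labelled knockout mice 1 and 2, and it was listed at 0 in mouse 3. Akr1c18, the luteal enzyme that inactivates progesterone, stayed under 1 TPM in all libraries. Ptch1, the hedgehog receptor, was at 22.6 and 29.6 TPM in the controls against 45.5, 82.0 and 72.7 TPM in labelled knockout mice 1, 2 and 3 (log2 difference 1.29, limma adjusted p 0.187). Without the members, 1 of 3 tested genes of the list lay above both controls (Ptch1), beside 11.9% of all genes. Ptgfr was at 12.3 and 17.7 TPM in the controls against 8.14, 7.74 and 17.8 TPM in labelled knockout mice 1, 2 and 3, with overlap. The median log2 difference of the 3 was -0.42. The sum over the 4 genes of the list was 39.1 to 48.9 TPM in the controls and 56.4 to 94.0 TPM in the labelled knockout libraries. Ptch1 held most of that sum in every library, so the sum follows this single gene.

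Markers of other organs and cell types were set beside these. Adrenal cortex markers summed to 17.6 to 23.0 TPM in the controls and 10.3 to 20.1 TPM in the labelled knockout libraries, with 4 of 6 below both controls, beside 21.9% of all genes. Among them Cyp21a1, which makes adrenal corticoids, was between 0.283 and 3.48 TPM and Cyp11b1 between 1.25 and 1.89 TPM. Oocyte markers summed to 16.97 to 17.7 TPM and 5.74 to 11.7 TPM, with Gdf9 between 1.37 and 5.20 TPM and Zp3 between 1.27 and 3.33 TPM. Most of these adrenal and oocyte genes were at low levels. Genes at 1 TPM or more numbered 19061 and 19432 in control mice 2 and 3 and 17148, 18190 and 15841 in labelled knockout mice 1, 2 and 3. The share of 21.9% covers genes of all levels, and a share among low genes was not computed. Epithelial markers summed to 2837 to 3159 TPM in the controls and to 2058, 11807 and 12702 TPM in labelled knockout mice 1, 2 and 3. Above both controls in all 3 lay 0 of 10, beside 11.9% of all genes. In the fit without labelled knockout mouse 1, 6 of the 10 were called higher, beside 5.35% of all genes. In labelled knockout mouse 1, Epcam (70.8 TPM) and Krt8 (62.0 TPM) lay below both controls and Foxj1 (67.9 TPM) between them. Immune markers summed to 1980 to 2582 TPM in the controls and 690 to 1493 TPM in the labelled knockout libraries, with 7 of 8 below both controls, beside 21.9% of all genes. Below both controls lay 1 of 5 smooth muscle and 0 of 5 endothelial markers, and 4 of the 5 erythroid genes, the globins, were listed at 0 in all libraries. The part of granulosa, theca or other cells in the sorted fraction in these results was not tested, and in bulk RNA a change in the number of cells of a type and a change in RNA per cell cannot be told apart.

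**Figure D3:**
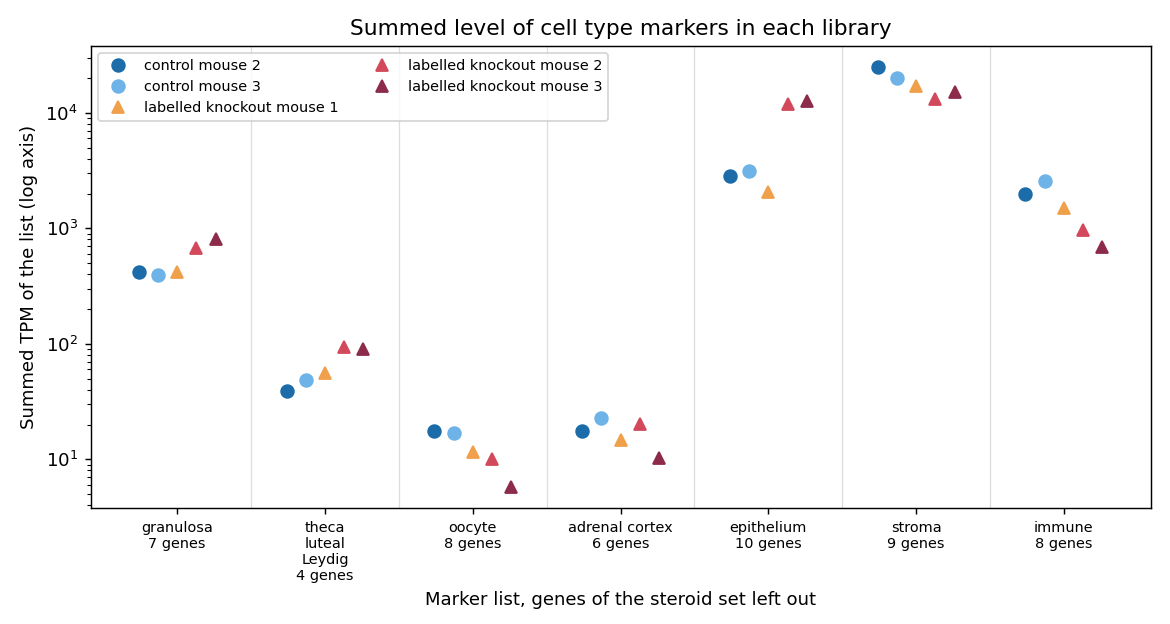
Summed TPM of each marker list (log axis) with a point for each library, members left out. The granulosa sum is 417, 674 and 808 TPM in labelled knockout mice 1, 2 and 3 against 417 and 393 TPM in control mice 2 and 3, and the epithelial sum is high in labelled knockout mice 2 and 3 only.

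The rest of the steroid pathway was described from 7 lists of 101 further genes, of which 99 were in the table and 94 were tested. At an adjusted p under 0.05, 0 passed (limma), and at an unadjusted p under 0.05 12 were higher and 5 lower, beside 3.7% and 9.87% of all genes. They lay above both controls in 20 cases and below both in 13, which is 21.3% and 13.8% against 11.9% and 21.9% of all genes. Without labelled knockout mouse 1, 10 were called higher and 3 lower, which is 10.6% and 3.19% beside 5.35% and 2.63% of all genes. The median log2 difference was 0.025.

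Regulators of steroidogenic cells are described first. Of 14 tested genes besides Nr5a1 and Lhcgr, 7 lay above both controls and 2 below both, which is 50.0% and 14.3% beside 11.9% and 21.9% of all genes. At an unadjusted p under 0.05, 6 were higher and 2 lower (limma, 0 at an adjusted p under 0.05), beside 3.7% and 9.87% of all genes. Fshr, the receptor for follicle-stimulating hormone on granulosa cells, was at 0.826 and 2.56 TPM in the controls against 6.32, 7.38 and 5.88 TPM in labelled knockout mice 1, 2 and 3 (log2 difference 1.56, standard error 0.33, limma adjusted p 0.187). Nr5a2, the close relative of Nr5a1 in granulosa and luteal cells, was at 1.61 and 10.6 TPM in the controls against 16.7, 45.4 and 45.8 TPM (log2 difference 2.62, standard error 0.68, limma adjusted p 0.214). It repeated the gap between the controls, 6.55-fold. Nr2f2, a nuclear receptor of stromal and theca cells, was at 92.0 and 101 TPM and at 156, 162 and 143 TPM, with little spread within either group (log2 difference 0.66, standard error 0.16, limma adjusted p 0.197). Cebpb (147 and 195 TPM against 116, 89.1 and 77.6 TPM) and Nr4a1 (383 and 497 TPM against 413, 223 and 158 TPM), transcription factors that luteinizing hormone induces in ovarian follicles, had log2 differences of -0.86 and -0.83 (limma adjusted p 0.215 and 0.396). Of these regulators, 4 were called higher (Nr5a2, Gata4, Foxl2 and Nr2f2) and 3 lower (Gata6, Nr4a1 and Cebpb) without labelled knockout mouse 1, which is 28.6% and 21.4% beside 5.35% and 2.63% of all genes.

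**Figure D4:**
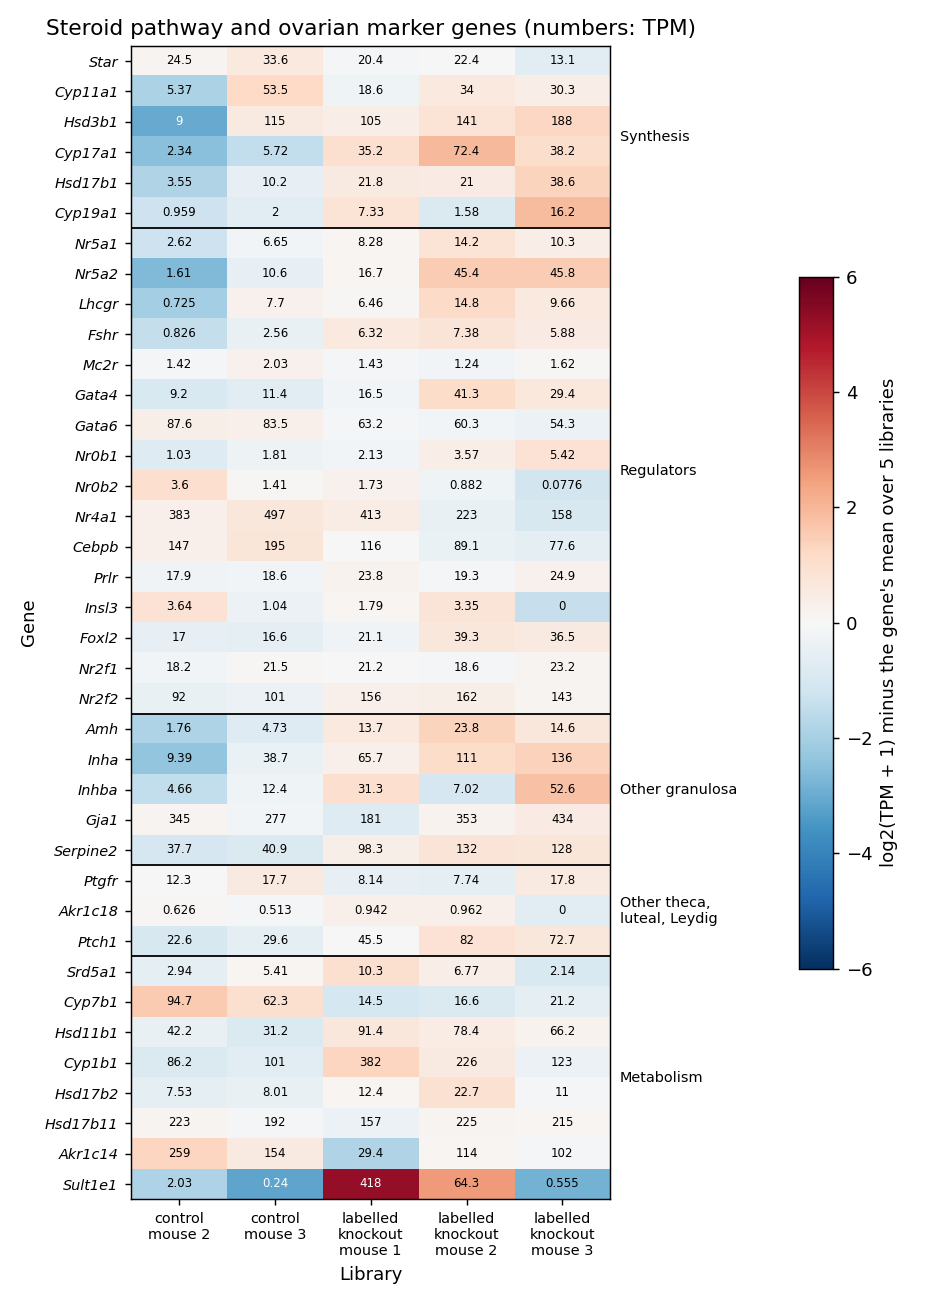
TPM (numbers) and log2(TPM + 1) minus the mean of each gene (colour) in the 5 libraries for the synthesis members, the regulator list, further granulosa and theca, luteal or Leydig markers, and metabolic genes, of which Sult1e1 was added after its values were seen. Control mouse 2 is lowest for Hsd3b1, Cyp11a1, Lhcgr, Nr5a2 and Inha, while Cyp17a1 is low in both controls.

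Enzymes that act on finished steroids come next. Of 19 tested besides the members, 6 lay above both controls and 4 below both, which is 31.6% and 21.1% beside 11.9% and 21.9% of all genes. Hsd11b1, which regenerates active glucocorticoid, was at 42.2 and 31.2 TPM in the controls against 91.4, 78.4 and 66.2 TPM in labelled knockout mice 1, 2 and 3 (log2 difference 1.08, standard error 0.21, limma adjusted p 0.160), and it passed without labelled knockout mouse 1 (limma adjusted p 0.035). Cyp1b1, which hydroxylates estradiol, was at 86.2 and 101 TPM and at 382, 226 and 123 TPM (log2 difference 1.23, limma adjusted p 0.317). Its level in mouse 3 was close to that of the controls and in mouse 1 far above them. Hsd17b2, which inactivates estradiol to estrone, was at 7.53 and 8.01 TPM and at 12.4, 22.7 and 10.96 TPM (log2 difference 0.83, limma adjusted p 0.343). Akr1c14, which reduces dihydrotestosterone and dihydroprogesterone, was at 259 and 154 TPM and at 29.4, 114 and 102 TPM (log2 difference -1.50, limma adjusted p 0.343). It was lowest in mouse 1, and whether it shares reads with other Akr1c genes was not examined. Hsd17b11 was high and even, between 157 and 225 TPM (log2 difference -0.072, limma adjusted p 0.883).

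Cofactors and the supply of cholesterol follow. Among 14 tested synthesis enzymes and cofactors besides the members, 0 lay above both controls and 4 below (28.6%), beside 11.9% and 21.9% of all genes. Those below included Cyp11b2 (2.53 and 3.32 TPM against 0.588, 1.72 and 0.376 TPM), Cyp21a1 and Hsd3b2 (limma adjusted p 0.302, 0.317 and 0.468). These are low levels, with the same limit as the adrenal cortex markers. The electron donors Por, between 107 and 149 TPM, and Cyb5a, between 526 and 774 TPM, overlapped between the groups, as did Hsd17b12, between 52.8 and 63.4 TPM (limma adjusted p 0.647, 0.773 and 0.951). Of 22 cholesterol synthesis genes 5 lay above both controls (22.7%) and 0 below, beside 11.9% and 21.9% of all genes. Their median log2 difference was 0.078. The 3 with the smallest p were Nsdhl, Msmo1 and Hmgcs1 (log2 differences 0.51, 0.42 and 0.32, limma adjusted p 0.403, 0.439 and 0.441). Insig1, Scap and Srebf2, which regulate cholesterol synthesis, had differences of -0.071, 0.023 and 0.0064, each below its standard error (0.163, 0.174 and 0.164).

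Of 11 cholesterol transport and storage genes besides Star, 1 lay above both controls and 1 below, beside 11.9% and 21.9% of all genes. Above lay Soat1, which esterifies cholesterol (67.2 and 73.4 TPM against 84.4, 122 and 115 TPM, log2 difference 0.59, limma adjusted p 0.316). Below lay Tspo (48.3 and 37.7 TPM against 36.8, 34.5 and 26.2 TPM, log2 difference -0.40, limma adjusted p 0.438). Abca1, a cholesterol exporter, and Npc2 overlapped (log2 differences -0.13 and -0.27). Of 9 tested oxysterol and bile acid genes besides Cyp7b1, 0 lay above both controls and 1 below, beside the same shares of all genes. The gene below was Cyp46a1 (4.98 and 4.85 TPM against 4.02, 3.44 and 3.46 TPM, limma adjusted p 0.502). Cyp8b1 and Ch25h had log2 differences of -0.66 and -0.45 (limma adjusted p 0.527 and 0.565), and the abundant Cyp27a1, Hsd3b7 and Cyp39a1 overlapped between the groups (log2 differences 0.31, 0.21 and 0.25). 

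Among 8 steroid receptor and carrier genes, Esr2, the gene of estrogen receptor beta and a granulosa cell receptor, was at 1.79 and 3.75 TPM in the controls against 8.03, 30.6 and 20.0 TPM in labelled knockout mice 1, 2 and 3 (log2 difference 2.32, standard error 0.53, limma adjusted p 0.193), and it passed without labelled knockout mouse 1 (limma adjusted p 0.0158). That fit lacks the only labelled knockout library with Esr1 below the controls. Of the 8 genes, 1 lay above both controls in all labelled knockout libraries (Esr2) and 1 below both (Gper1). Each is 12.5%, beside 11.9% and 21.9% of all genes. Pgr, the progesterone receptor, was at 104 and 29.5 TPM and at 2.90, 18.0 and 30.2 TPM (log2 difference -2.10, limma adjusted p 0.374), with control mouse 3 and labelled knockout mouse 3 nearly equal. Gper1 was low, between 1.10 and 3.01 TPM (log2 difference -0.55, limma adjusted p 0.426). The glucocorticoid receptor Nr3c1, between 48.0 and 59.4 TPM, overlapped between the groups, with a log2 difference of 0.039 that was below its standard error of 0.17.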

How the data were processed

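The submitters deposited 1 table of TPM per gene, with a column for each of the 5 libraries. Per the labels' protocols, RNA was taken from sorted cells with a Zymo kit and libraries were made with the Takara SMARTer v4 low-input kit. The submitters' processing notes name the build mm10, and STAR appears in the authors' name for the table. Its version, the gene counter and the annotation are not given in the sources used here. The deposited TPM sum to 1000000 per library over 23857 genes, which makes each value relative to all others. A single gene, Rpph1, held 18.6% and 21.3% of the TPM in control mice 2 and 3. Its share was 22.3%, 14.3% and 13.1% in labelled knockout mice 1, 2 and 3.

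The fit used log2(TPM + 1) in limma 3.58.1 under R 4.3.3 (mean-variance trend, genotype as the only term) for 19292 genes with at least 1 TPM in at least 2 libraries. Tests were two-sided, with Benjamini-Hochberg adjustment over all genes tested and a threshold of 0.05. In simulated data for these 5 libraries (18624 genes tested), 95.5% of 200 genes changed by 2 on the log2 scale were recovered. Of those changed by 1 (18653 genes tested), 0% were. With the change of 2, 19 unchanged genes were also called. Noise was drawn independently from the fitted spread, and changed genes had a mean log2(TPM + 1) above 2. Shifts shared by a whole library were not simulated, so these shares need not hold in the real libraries. In the real fit Esr2 and Nr5a2, with log2 differences of 2.32 and 2.62, did not pass. Depth was estimated in each library, with Python 3.11.15, from the steps in TPM times length of single-exon genes, and the method was tested on simulated data: 1 TPM in a 1 kb transcript corresponded to 6.55 to 13.7 reads. Without molecular identifiers, reads are not separate molecules, and the estimates cover counting only.

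Gene positions are from GENCODE M21 and promoters from RefSeq, both GRCm38. The members and lists were chosen with earlier results of these data known. In each pathway list, the genes named are those past the threshold or, failing any, the 3 with the smallest p, and the 3 with the highest mean TPM, of which 1 is not reported here. Other names are counts of 5 or fewer, marker genes, the 5 nearest profiles of 3 members, or genes said to be chosen after their values were seen. Hsd17b8 and Sts were not analysed here. Gata4, Gata6, Cd3e, Inhba, Ptch1, Ptgfr, Serpine2, Gja1, Akr1c18, Alas2, Hsd3b3 and Hsd3b6 were named after their values were seen. The alternatives were another pseudocount, 2 filters, 3 scalings, no trend, library weights, a replicate block, leaving out each library and a threshold of 0.1.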

Additional observations from a re-analysis of the deposited data

How the results depend on the processing

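Of the 140 alternative values of the 10 members, 132 stayed within 1 SD of the value from all libraries. The other 8 came from leaving out control mouse 2 or 3, for Cyp11a1 (-0.97 and 2.13), Hsd3b1 (0.29 and 3.82), Nr5a1 (0.61 and 1.69) and Lhcgr (0.31 and 2.65). Sign changes numbered 3. Not all of the 140 values could move, since the 2 filters and the fit without trend cannot change a log2 difference. The replicate block gives the same log2 difference as leaving out labelled knockout mouse 1. The counts over all genes, 2 higher and 3 lower, were 14 and 22 at an adjusted p under 0.1, 0 and 0 with a pseudocount of 0.1 or a mean of at least 5 TPM, 260 and 396 with library weights, and 0 to 1022 and 0 to 502 over the fits without 1 library each. The higher count was 1 without the filter and 0 with median-of-ratios scaling, quantile normalization or no trend, and the lower count 5 without Rpph1 and Rn45s. The count of further pathway genes, 0, was 8 with library weights and 0 to 13 without 1 library each. Where a fit without a control leaves 1 library in that arm, that library is assumed to vary like the others.

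With mouse number as a replicate block, 1165 genes were higher and 693 lower of 19292 tested, 14 further pathway genes passed, and Esr1 was 0.57. Of the members, 2 were called higher and 1 lower, which is no test, since they were chosen with this comparison known. Mouse 1 has no partner in this fit, so the group difference rests on mice 2 and 3. The correlation of deviations from group means was -0.0598 in the pair of mouse 2 and -0.0719 in that of mouse 3. Deviations of the 2 controls mirror each other, so both values rest on a single control contrast. They cannot decide whether mice of the same number belong together.

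Esr1 (-0.099, limma adjusted p 0.948) was 0.15 with library weights and -0.68 to 0.57 without 1 library each. Small differences changed sign. With the block, Hsd17b11 was 0.089 and Cyp27a1 -0.12. With quantile normalization, Hsd17b12 was -0.10, Scap -0.095, Srebf2 -0.100 and Nr3c1 -0.098, and without Rpph1 and Rn45s they were -0.035, -0.037, -0.053 and -0.021. Hsd17b11 was 0.048 with library weights. Without 1 library each, Abca1 ran from -0.34 to 0.066, Hsd17b12 from -0.088 to 0.14, Hsd17b11 from -0.18 to 0.089, Cyp27a1 from -0.12 to 0.67, Scap from -0.060 to 0.10, Srebf2 from -0.061 to 0.047 and Nr3c1 from -0.069 to 0.15. The cause was not tested. Among 494 values of 36 named pathway genes, 449 kept their side of the threshold and direction, 21 passed it and 24 changed sign. Here too the filters and the fit without trend could not change a sign.

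The median log2 difference of all genes was 0.099 with a mean of at least 5 TPM and between -0.079 and 0.031 in the other fits. At an unadjusted p under 0.05, 643 genes were higher and 746 lower with a mean of at least 5 TPM.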

Other observations

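Sult1e1 and Papss2, a pair of sulfation genes, were named after their values were seen. Sult1e1, the sulfotransferase that inactivates estradiol, was at 2.03 and 0.24 TPM in control mice 2 and 3, at 418 and 64.3 TPM in labelled knockout mice 1 and 2, and at 0.555 TPM in mouse 3, between the controls. Its log2 difference of 4.17 had a standard error of 2.06 (limma adjusted p 0.415). Papss2, which makes the sulfate donor, was at 31.4 and 31.2 TPM in the controls against 73.6, 45.0 and 31.8 TPM in labelled knockout mice 1, 2 and 3 (log2 difference 0.58, standard error 0.33, limma adjusted p 0.458). Cyp27a1, which makes oxysterols from cholesterol, was at 76.2 and 70.8 TPM and at 166, 83.2 and 55.0 TPM. Cyp1b1, Hsd11b1 and Srd5a1 had the same order, highest in mouse 1 and lowest in mouse 3, and Esr1 the reverse, at 28.9, 85.0 and 170 TPM. Other enzymes of finished steroids, such as Akr1c14 and Hsd17b2, did not have this order. The order within 3 mice and any link to the Esr1 level were not tested, and the share of all genes with this order was not computed.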
